A study of Mus musculus with 12 samples.

Results

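The heat shock and unfolded protein response was followed through 46 genes, taken by symbol from a table of read counts for 24061 gene identifiers. They comprise 17 cytosolic chaperones and co-chaperones with their regulator Hsf1, 3 mitochondrial chaperones, 18 genes of folding and sensing in the endoplasmic reticulum (ER), and 8 genes made up of the transcription factor ATF4 and its targets. The RNA came from whole hearts of male mice aged 4 months, with 6 knockout hearts (K7 to K12, here KO) and 6 wild-type hearts (W1 to W6, here WT). KO mice were Slc4a4flx/flx(Cre), homozygous for a floxed Slc4a4 and carrying Cre recombinase from a β-myosin promoter, which removes exon 12 in cardiac myocytes. WT mice were Slc4a4flx/flx, with the same floxed alleles and no Cre. Slc4a4 encodes NBCe1, the electrogenic sodium-bicarbonate cotransporter. Because the Cre gene was present in KO mice alone, the deletion and Cre itself cannot be told apart, and cells other than myocytes keep the gene. The Cre mouse was C57Bl6.

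Cells meet unfolded protein with a separate programme in each compartment. In the cytosol, heat shock factor HSF1 is held inactive by chaperones and, once freed, drives HSP70, HSP90, J-domain and small heat shock protein genes; several small heat shock proteins are also abundant in unstressed striated muscle, where they associate with the contractile filaments. In the ER, the sensors ATF6, IRE1 and PERK are kept quiet by the chaperone BiP, and on its release they raise ER chaperones, splice the Xbp1 transcript and slow translation. PERK shares the last arm, the integrated stress response, with other kinases that phosphorylate eIF2α and so favour translation of ATF4, which turns on amino acid synthesis genes, Ddit3 and the secreted factors Fgf21 and Gdf15. The comparison asks whether hearts whose myocytes lost the bicarbonate cotransporter carried more or less of these transcripts.

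Sequence elements of these programmes lie in the promoters of many of the genes, and they are shown because they are the sequences through which HSF1, ATF6 and ATF4 are known to act. Promoters from 250 bases before to 50 bases after the start site (RefSeq, GRCm38.p6) matched 38 of the 46 genes, with 47 promoters in all, and Atf6, Hsf1, Hsp90aa1, Hsp90ab1, Hspa8, Hspa9, Hspb2 and Manf had no entry. Exact motifs were searched on both strands, and a match is a description of letters only. Here and below, a gene is counted if any of its promoters matched, whereas the share of all promoters counts single promoters. The figures set side by side therefore differ in unit. The ER stress element was taken as CCAAT followed after 9 bases by CCACG. It was present in 7 of the 16 ER genes with a promoter and in 0.119% of the 32851 promoters of all genes. Hsp90b1 held it at 2 positions. The windows below run 5′ to 3′ on the strand of the gene, with the element in capitals.
Calr, chr8:84847069-84847098, minus strand: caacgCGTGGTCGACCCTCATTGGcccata
Canx, chr11:50325794-50325823, minus strand: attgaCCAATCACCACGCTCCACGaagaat
Creld2, chr15:88819515-88819544, plus strand: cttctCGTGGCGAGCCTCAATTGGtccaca
Dnajc3, chr14:118937822-118937851, plus strand: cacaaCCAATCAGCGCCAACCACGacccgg
Hsp90b1, chr10:86705632-86705661, minus strand: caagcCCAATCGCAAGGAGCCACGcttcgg
Hsp90b1, chr10:86705527-86705556, minus strand: gagtgCGTGGTGAGGCACGATTGGtgagtt
Hspa5, chr2:34772020-34772049, plus strand: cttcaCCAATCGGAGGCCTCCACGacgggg
Pdia6, chr12:17266486-17266515, plus strand: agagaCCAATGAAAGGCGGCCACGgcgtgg
In Hspa5, the gene of BiP, the element begins 65 bases before the start site, and the full 200 bases upstream are given with the element in capitals.
Hspa5 upstream, chr2:34771890-34772089, plus strand: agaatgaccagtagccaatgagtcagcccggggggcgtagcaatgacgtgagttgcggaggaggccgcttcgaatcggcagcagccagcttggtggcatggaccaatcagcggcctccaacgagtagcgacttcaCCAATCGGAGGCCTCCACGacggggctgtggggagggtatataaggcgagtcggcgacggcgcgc

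The heat shock element was taken as 3 alternating GAA and TTC units with 2 bases between neighbours. Of the 38 genes with a promoter, Hsph1, Hspd1 and Hspe1 held it, against 0.603% of all promoters. Hspd1 and Hspe1 are neighbours transcribed in opposite directions from a shared region, so their matches are the same stretch read from either side. A shorter form with 2 units, which lies inside the longer one and was added after the values had been seen, was found in 10 of 12 cytosolic genes with a promoter and in 15.1% of all promoters. The upstream regions of Hspa1a and Hspa1b, the stress-inducible HSP70 genes, each held the shorter form and differed at 1 of 120 bases. Capitals mark the GAA and TTC units with the bases between them.
Hspa1a, chr17:34972157-34972276, minus strand: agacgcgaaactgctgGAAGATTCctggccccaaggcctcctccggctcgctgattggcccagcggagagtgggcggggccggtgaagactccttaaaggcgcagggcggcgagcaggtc
Hspa1b, chr17:34959239-34959358, minus strand: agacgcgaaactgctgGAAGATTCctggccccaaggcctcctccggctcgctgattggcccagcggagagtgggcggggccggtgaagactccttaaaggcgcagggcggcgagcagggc
Hspe1, chr1:55088053-55088082, plus strand: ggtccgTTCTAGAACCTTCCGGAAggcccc

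The amino acid response element, a binding sequence of ATF4 with its partners, was taken as TGATG, any base, then AA. It was found in 4 of the 8 genes of the ATF4 class (Asns, Chac1, Fgf21 and Trib3) and in Herpud1 of the ER class, against 3.97% of all promoters. In Asns it overlaps a 2-unit heat shock form. In Trib3 it lies after the start site, at bases 15 to 22, and that window is not shown. The unfolded protein response element, TGACG directly followed by TGG, was in 0 of the 38 genes and 0.676% of all promoters, which says only that these letters are not in these windows. Capitals mark the amino acid response element.
Asns, chr6:7693214-7693243, minus strand: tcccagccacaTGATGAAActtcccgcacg
Chac1, chr2:119351038-119351067, plus strand: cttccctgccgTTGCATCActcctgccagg
Fgf21, chr7:45615611-45615640, minus strand: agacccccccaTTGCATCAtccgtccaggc
Herpud1, chr8:94386306-94386335, plus strand: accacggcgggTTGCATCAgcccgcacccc

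None of the genes passed the test between genotypes. Of the 46 genes, 44 had enough reads to be tested; Fgf21 and Gdf15 did not. In edgeR's quasi-likelihood test with Benjamini-Hochberg adjustment over 13832 genes, 0 of the 44 had an adjusted p under 0.05, against 0.0% of all genes, and the lowest adjusted p among them was 0.999. At an unadjusted p under 0.05 there were 2 of 44 (4.55%), Hspb6 and Eif2ak3, a share near the 4.06% of all genes tested. On the same genes DESeq2 gave 6 and limma-voom 0 past the adjusted threshold, 0 of them among the 44. The values of KO and WT hearts overlapped in all 44 genes, so 0 were without overlap, against 0.253% of all genes. Positive log2 fold changes (KO over WT) numbered 23 and negative ones 21, so that 52.3% were above 0, against 50.6% of all genes.

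Taken gene by gene, the data also bound how large a difference in whole-heart RNA can have gone unseen. The intervals are not adjusted for the number of genes and do not bound changes within myocytes alone. The 95% interval of the fold change lay within 1.5-fold in either direction for 38 of 44 genes (86.4%), against 77.3% of all genes. It lay within 2-fold for all 44, as it did for 12959 of the 13832 genes tested. The 6 genes with wider intervals than 1.5-fold were Hspa1a and Hspa1b in the cytosol, Sdf2l1 in the ER, and Asns, Trib3 and Chac1 in the ATF4 class, all at low counts. In each class the median log2 fold change was small, at -0.02 for the cytosolic genes, -0.05 for the mitochondrial genes, 0.06 for the ER genes and -0.04 for the ATF4 class, beside 0.00 for all genes tested.

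**Figure D1:**
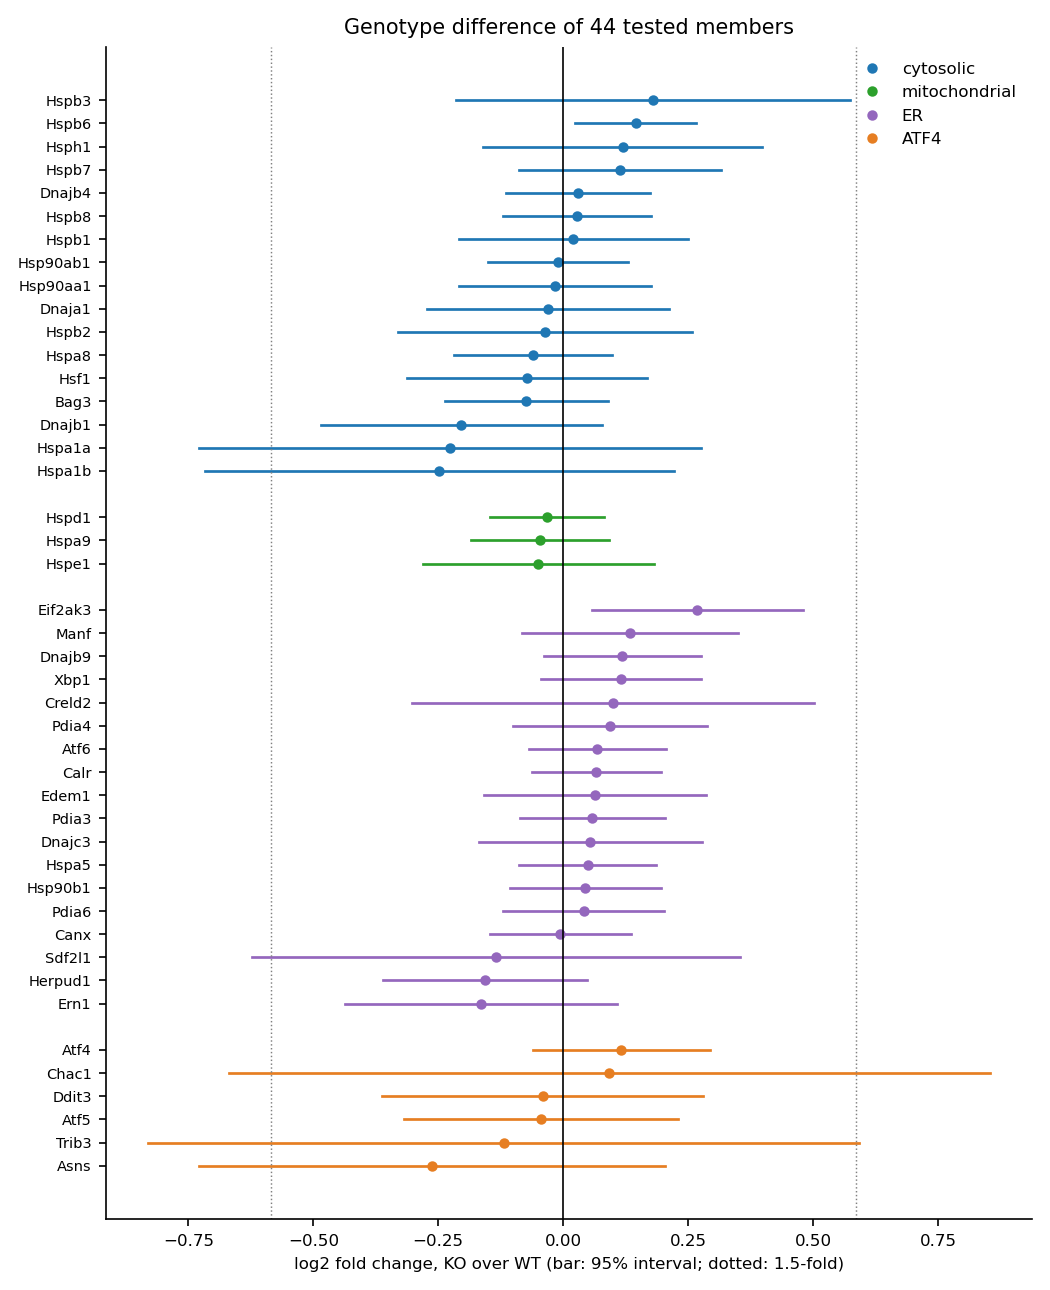
Log2 fold change of each of the 44 tested genes, KO over WT (x axis), ordered within the cytosolic, mitochondrial, ER and ATF4 classes; points are edgeR estimates, bars 95% intervals, and dotted lines mark 1.5-fold. Estimates run from -0.26 for Asns to 0.27 for Eif2ak3, and only the bars of Hspb6 and Eif2ak3 do not cross 0.

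The libraries held 10631869 to 12756955 counts in KO and 11367980 to 13327519 counts in WT. Slc4a4, counted over its whole length (chromosome 5, 88793858 to 89239656, GRCm38), had 38.4, 47.6 and 68.5 CPM (read counts relative to a library size scaled by TMM) as lowest, median and highest of the KO hearts and 63.6, 90.1 and 105.7 CPM in WT hearts. Its log2 fold change was -0.81 (SE 0.14, edgeR adjusted p = 0.0891), and K8 lay above the lowest WT heart, W5. Cardiac myocyte markers (5 of 5 detected) summed to 30980 to 35990 CPM in KO and 31470 to 38790 CPM in WT. Summed red cell markers ran from 2445 to 6148 CPM in KO and from 2902 to 17650 CPM in WT, highest in W2, and summed liver markers ran from 1.96 to 68.5 CPM in KO and from 0.232 to 1.09 CPM in WT, highest in K7. For this sum the lowest KO heart lay above the highest WT heart, so leaving out K7 does not remove that difference. It rests mainly on Alb, the only 1 of the 4 liver markers with enough reads to be tested. Alb had 1.335 to 62.84 CPM in KO and 0.0 to 1.094 CPM in WT. Apoa2, Mup3 and Ttr were near 0 in most hearts and each overlapped between the groups. Summed smooth muscle markers ran from 154 to 320 CPM in KO and from 151 to 217 CPM in WT. The part of these markers in the values below was not tested. Without W2 and K7 together, 0 of the 44 genes were called. In RNA from the whole organ, fewer cells of a type and less RNA per cell cannot be told apart.

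Exon length was the union of all annotated exons of a gene, so the order of levels depends on the annotation. Per exon length, the levels of these genes differed widely. The highest was Hspb7, a small heat shock protein enriched in heart, at 578 ± 80.8 RPKM (CPM per kilobase of exon) in KO and 534 ± 77.2 RPKM in WT (SD, n = 6 each). Hspa8, the constitutive HSP70, followed at 279 ± 17.6 RPKM in KO and 291 ± 36.0 RPKM in WT, and Hspb6 at 273 ± 11.3 RPKM in KO and 247 ± 15.8 RPKM in WT. In KO hearts these neighbours differed by less than their SD. Hspa9 (206 ± 9.24 RPKM in KO, 213 ± 20.8 RPKM in WT), Hsp90ab1 (196 ± 16.9 RPKM in KO, 197 ± 14.4 RPKM in WT) and Hspd1 (177 ± 8.04 RPKM in KO, 181 ± 6.75 RPKM in WT) came next, with Hspa9 and Hsp90ab1 within an SD of each other. In the ER, Hspa5 averaged 119.5 ± 7.69 RPKM in KO and 115.5 ± 9.86 RPKM in WT, and Canx averaged 111 RPKM in KO and 112 RPKM in WT. At the other end of the cytosolic class, the stress-inducible Hspa1a and Hspa1b averaged 1.13 and 1.05 RPKM in KO hearts and 1.32 and 1.24 RPKM in WT hearts. As counted, these values were far below the constitutive HSP70 in either genotype. How reads that match both near-identical copies were counted was not given, so their true level relative to Hspa8 is uncertain. Hsf1 itself averaged 1.88 RPKM in KO and 1.98 RPKM in WT.

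**Figure D2:**
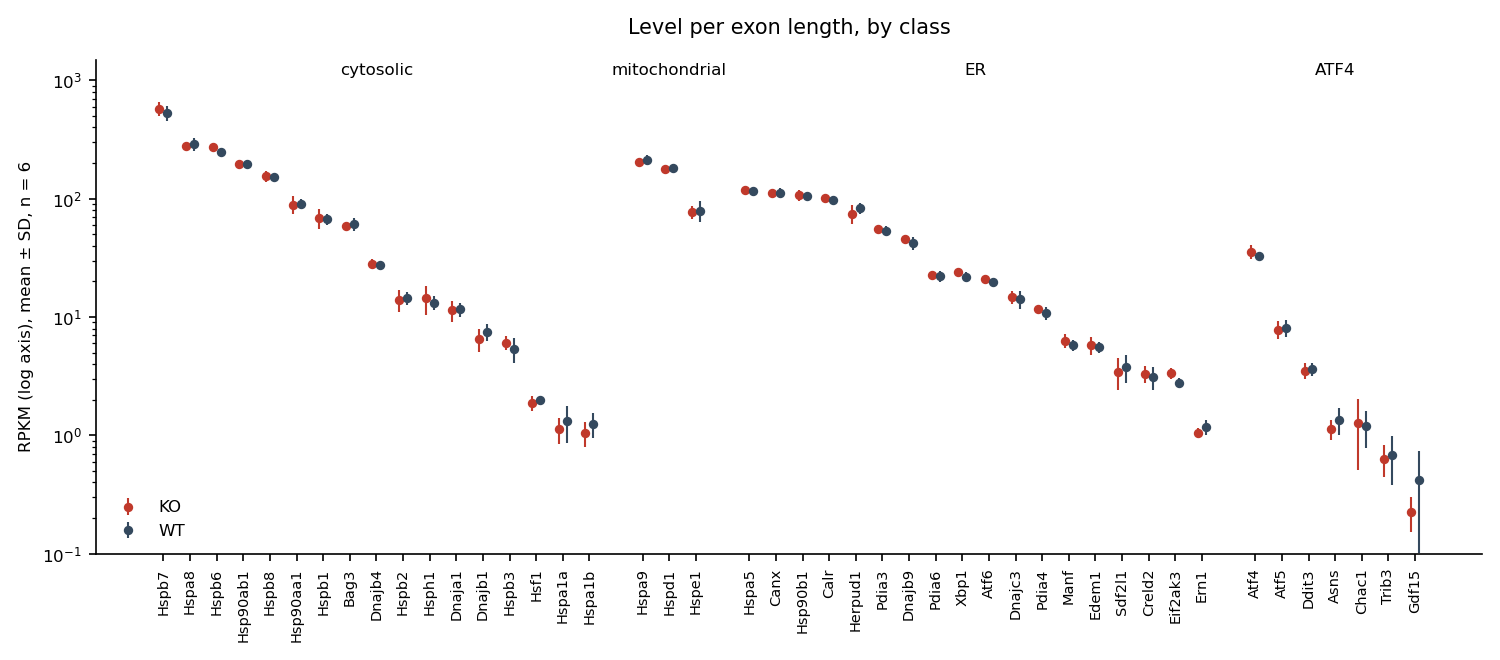
Level of each gene per exon length in RPKM on a log axis, by class, with KO left of WT for each gene; points are means and bars SD over 6 hearts (the lower bar of Gdf15 in WT runs below the axis), and Fgf21 is not drawn. Among the genes drawn, KO means run from 578 RPKM for Hspb7 to 0.226 RPKM for Gdf15.

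Of the 17 cytosolic genes, 0 passed, 7 had positive and 10 had negative fold changes, and the sign of the median depended on the hearts included (from -0.08 without K9 to 0.02 without K11). Among the small heat shock proteins, Hspb6 (Hsp20; chromosome 7, 30552535 to 30555443), known to be phosphorylated by protein kinase A in heart, had 587, 629.6 and 662 CPM as lowest, median and highest in KO hearts, against 532, 554 and 636 CPM in WT hearts. All 6 KO hearts lay above the WT median, and 2 of them lay above W2, the highest WT heart. The log2 fold change was 0.15 (SE 0.06), or 10.6% higher with a 95% interval from 1.69% to 20.3% (unadjusted p = 0.0211, adjusted p = 0.999 by edgeR). The exact two-sided permutation p over 924 regroupings was 0.0152, not adjusted for the number of genes and from the same hearts.

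Hspb7 (chromosome 4, 141420779 to 141425310) had 1285, 1609 and 1863 CPM in KO hearts, against 1295, 1380 and 1781 CPM in WT hearts. The ranges covered each other almost fully, with a log2 fold change of 0.11 (SE 0.10). Hspb8, which works with Bag3 in the removal of damaged filament proteins, averaged 300.5 ± 31.2 CPM in KO and 295 ± 18.8 CPM in WT, and Bag3 averaged 149 ± 7.45 CPM in KO and 157 ± 20.2 CPM in WT (SD, n = 6 each). Hspb1, Hspb2 and Hspb3 had log2 fold changes of 0.02, -0.04 and 0.18, all with intervals across 0. For Hspb2, 30.2% of its annotated exon bases are shared with Cryab on the opposite strand, and reads from that stretch cannot be told apart, since whether the counting used strand was not given in the sources used here.

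Hspa1a (chromosome 17, 34969359 to 34972156) had 2.61, 3.03 and 4.54 CPM as lowest, median and highest in KO hearts, against 2.37, 3.74 and 5.97 CPM in WT hearts. Hspa1b (chromosome 17, 34956429 to 34959238) had 1.96, 2.97 and 3.90 CPM in KO hearts, against 2.44, 3.29 and 4.68 CPM in WT hearts. W1 was the highest heart for each of them and the groups overlapped. Their log2 fold changes were -0.23 (SE 0.24) and -0.25 (SE 0.23), with intervals from -39.6% to 21.1% and from -39.2% to 16.6%. The longest reading frames of these genes, of 1926 and 1929 bases, share 1919 identical bases (99.48%), so their separate values are uncertain. How reads that match both copies were counted was not given in the sources used here, so their low level is uncertain too. In addition, 19.0% of the exon bases of Hspa1a are shared with Gm20481 on the opposite strand.

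Hspa8 had a log2 fold change of -0.06 (SE 0.08), with an interval from -14.1% to 6.93%. The HSP90 genes were as close, at -0.02 for the inducible Hsp90aa1 and -0.01 for the constitutive Hsp90ab1, and the interval of Hsp90ab1 ran from -9.94% to 9.38%. Hsph1, the HSP110 that acts as exchange factor of HSP70, averaged 104 ± 28.0 CPM in KO and 96.0 ± 13.2 CPM in WT, and K9 held the highest value of all hearts at 152 CPM. Among the J-domain partners of HSP70, Dnajb1 (chromosome 8, 83608175 to 83612653), a classic HSF1 target, had 15.6, 20.5 and 28.8 CPM in KO hearts, against 17.9, 24.2 and 29.1 CPM in WT hearts. K11 and K12 lay below every WT heart, while K7 lay among the highest. Its log2 fold change was -0.20 (SE 0.14, unadjusted p = 0.147, adjusted p = 0.999 by edgeR). Dnaja1 and Dnajb4 had log2 fold changes of -0.03 and 0.03, and Hsf1 of -0.07 (SE 0.12).

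**Figure D3:**
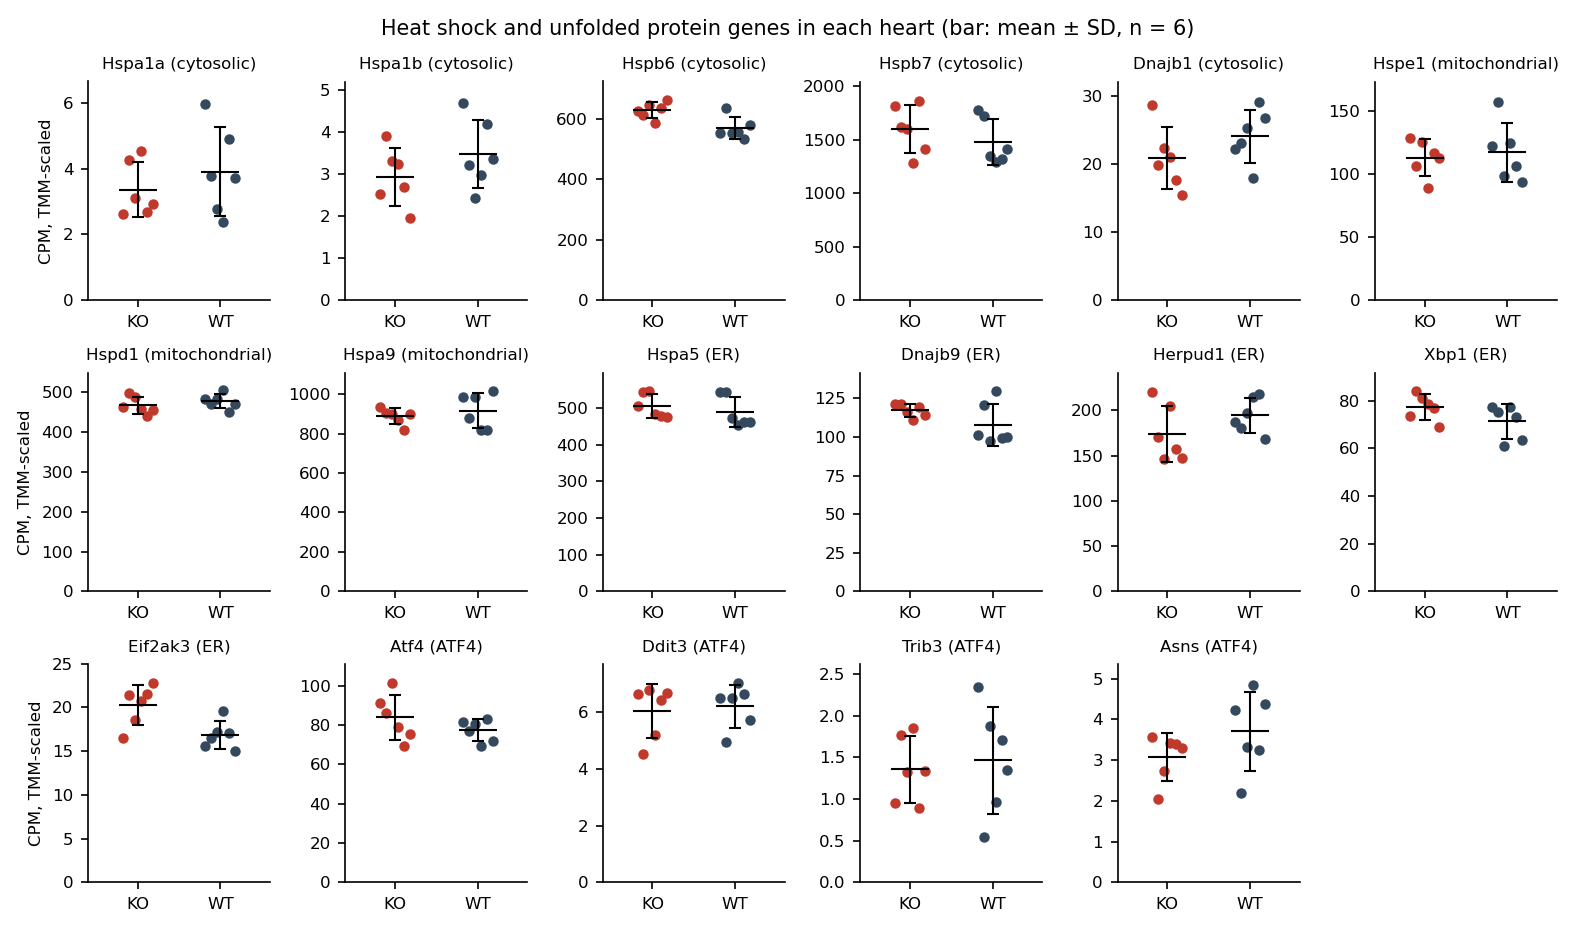
CPM, scaled by TMM, of 17 genes in each heart, KO left of WT, with the class in brackets; points are hearts and bars the mean ± SD (n = 6 each), on axes that start at 0. In every panel the KO and WT points overlap; in the Eif2ak3 panel 4 KO hearts lie above all WT hearts.

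Of the 3 mitochondrial chaperones, 0 passed, and all 3 intervals lay within 1.5-fold. Hspd1 (HSP60; chromosome 1, 55077833 to 55088243), the barrel in which imported matrix proteins fold, had 439.8, 461 and 497 CPM in KO hearts, against 451, 477 and 505 CPM in WT hearts. Hspe1 (HSP10; chromosome 1, 55088148 to 55091317), the lid of that barrel, had 88.7, 115 and 129 CPM in KO hearts, against 93.5, 114 and 157 CPM in WT hearts. Hspa9 (mortalin; chromosome 18, 34937414 to 34954351), the HSP70 that pulls proteins through the inner membrane, had 819, 900.0 and 935 CPM in KO hearts, against 816, 931 and 1017 CPM in WT hearts. The groups overlapped for all 3, and W2 was the highest heart for Hspe1. Their log2 fold changes were -0.03 (SE 0.05), -0.05 (SE 0.11) and -0.05 (SE 0.07) for Hspd1, Hspe1 and Hspa9, with intervals from -9.64% to 5.82%, from -17.7% to 13.4% and from -12.1% to 6.57%. The sign for Hspe1 turned positive without W2 (0.05), without K10 (0.01) and without W2 and K7 together (0.01). Hspd1 and Hspe1 share 112 exon bases on opposite strands.

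In the ER class 0 of 18 genes passed, while 14 had positive and 4 negative fold changes, with 12 positive without W2 and K7, 11 to 15 when hearts were left out in turn (11 without W6), and 15 when libraries were scaled by their totals. Since genes of the class also vary together from heart to heart, as described further on, these signs are not independent of each other. The main chaperone Hspa5 (BiP, GRP78; chromosome 2, 34772090 to 34776529) had 475, 494 and 547 CPM as lowest, median and highest in KO hearts, against 453, 467 and 542 CPM in WT hearts. All 6 KO hearts lay above the WT median, but W1 and W2 lay above 4 of them. The log2 fold change was 0.05 (SE 0.07), with an interval from -5.94% to 13.7%. Hsp90b1 (GRP94) followed at 0.04 (SE 0.07), Calr at 0.07 and Canx at -0.01, the lectin chaperones of glycoprotein folding, and the disulphide isomerases Pdia3, Pdia4 and Pdia6 at 0.06, 0.09 and 0.04. The 7 genes with an ER stress element in the promoter windows shown above had log2 fold changes from -0.01 (Canx) to 0.10 (Creld2).

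The BiP co-chaperone Dnajb9 (ERdj4; chromosome 12, 44205897 to 44210068), a target of spliced XBP1, had 111, 118 and 122 CPM in KO hearts, against 97.5, 100.4 and 129 CPM in WT hearts. KO hearts were tightly grouped above the WT median, and the highest WT heart lay above them all. Its log2 fold change was 0.12 (SE 0.08, unadjusted p = 0.132, adjusted p = 0.999 by edgeR). Xbp1 (chromosome 11, 5520641 to 5525993) had 69.0, 77.9 and 84.0 CPM in KO hearts, against 61.1, 74.3 and 77.4 CPM in WT hearts, with a log2 fold change of 0.12 (SE 0.08). The counts are per gene, so the spliced and unspliced forms of Xbp1 were not separated. Dnajc3, a further J-domain partner of BiP, had a log2 fold change of 0.05, and the secreted or resident stress-induced proteins Creld2, Manf and Sdf2l1 had 0.10, 0.13 and -0.14, each with an interval across 0.

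For disposal of misfolded protein, Herpud1 (chromosome 8, 94386429 to 94395371), a membrane part of ER-associated degradation, had 146, 164 and 220.0 CPM in KO hearts, against 168, 192 and 218 CPM in WT hearts. K9, K11 and K12 lay below every WT heart, and K7 lay above every one. Its log2 fold change was -0.16 (SE 0.10, unadjusted p = 0.126, adjusted p = 0.999 by edgeR). Edem1, which marks glycoproteins for disposal, had a log2 fold change of 0.06 (SE 0.11).

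Of the 3 sensors, Eif2ak3 (PERK; chromosome 6, 70844484 to 70905241) had the smallest p of all 44 genes. It had 16.5, 21.1 and 22.8 CPM as lowest, median and highest in KO hearts, against 15.1, 16.8 and 19.6 CPM in WT hearts. K8, K10, K11 and K12 lay above every WT heart, whereas K7 and K9 lay within the WT range. The log2 fold change was 0.27 (SE 0.10), or 20.4% higher with an interval from 4.06% to 39.4% (unadjusted p = 0.0152, adjusted p = 0.999 by edgeR). The exact two-sided permutation p over 924 regroupings was 0.0195. It is not adjusted for the number of genes and uses the same hearts, so it adds no separate evidence. With hearts left out in turn the log2 fold change ran from 0.23 to 0.32, and its lowest adjusted p by edgeR was 0.842. Atf6 had 0.07 (SE 0.07) and Ern1 (IRE1) -0.16 (SE 0.13); 0 of 6 KO hearts lay above the WT median for Ern1, and the groups overlapped. Of the exon bases of Eif2ak3, 8.0% are shared with Gm43292 on the opposite strand. Hsp90b1 shares 10.3% with 1810014B01Rik and Dnaja1 shares 7.0% with Smu1, also on opposite strands. Exon overlaps of the other genes are not all listed.

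In the ATF4 class 0 of 6 tested genes passed, with 2 positive and 4 negative fold changes. Without W1 there were 4 positive and 2 negative (median 0.04) and without K10 3 of each (median 0.01), so the sign of the median depended on those hearts. Atf4 (chromosome 15, 80255184 to 80257545) had 69.5, 82.5 and 101.4 CPM in KO hearts, against 69.5, 78.7 and 83.1 CPM in WT hearts. K7, K8 and K9 lay above every WT heart and the others within or at the lower end of the WT range. The log2 fold change was 0.12 (SE 0.09); since ATF4 is controlled mainly through translation, its transcript is only part of its regulation. Ddit3 (CHOP; chromosome 10, 127290793 to 127296291), a target of ATF4 tied to cell death, had 4.52, 6.55 and 6.80 CPM in KO hearts, against 4.95, 6.50 and 7.03 CPM in WT hearts, with a log2 fold change of -0.04 (SE 0.15) that became 0.03 without K8.

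Of the targets of ATF4, Asns, Trib3 and Chac1 were low in hearts of either genotype. Atf5 was higher, with means of 15.6 CPM in KO and 16.1 CPM in WT. Asns (asparagine synthetase; chromosome 6, 7675165 to 7693209) had 2.04, 3.35 and 3.56 CPM in KO hearts, against 2.20, 3.78 and 4.83 CPM in WT hearts. In 0 of 6 KO hearts did it exceed the WT median, yet W2, W5 and W3 lay within the KO range. Its log2 fold change was -0.26 (SE 0.22), with an interval from -39.7% to 15.2%. Trib3 (chromosome 2, 152337425 to 152344060), a pseudokinase that restrains AKT and ATF4, had 0.896, 1.33 and 1.86 CPM in KO hearts, against 0.549, 1.53 and 2.34 CPM in WT hearts, and its log2 fold change of -0.12 (SE 0.34) became 0.07 without W1. Atf5 had -0.04 and Chac1, which breaks down glutathione, 0.09 (SE 0.37), with an interval from -37.1% to 80.7%.

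Fgf21 and Gdf15, hormones that organs secrete under stress of the integrated response, were too low to test. Fgf21 had 0 reads in all 6 KO hearts and 1 read in WT, in W5. In the KO hearts 0 reads allow up to 0.235 to 0.282 CPM. That limit is 3 reads over the library total without TMM scaling, and it covers counting error only. Gdf15 had 3 to 7 reads in KO hearts (28 in all), against 2 to 22 reads in WT hearts (58 in all), with W5 at 22 and W6 at 15. With no filter on low counts, Gdf15 gave a log2 fold change of -0.88 (edgeR unadjusted p = 0.129, adjusted p = 0.885).

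Further genes of the same pathways, in 4 lists, gave 0 calls as well. Of 26 cytosolic chaperones and co-chaperones, 0 passed, 18 had positive and 8 negative fold changes, with a median of 0.03. Dnaja4, a J-domain protein, averaged 235 ± 24.0 CPM in KO and 207 ± 19.5 CPM in WT (log2 fold change 0.19, SE 0.08, edgeR unadjusted p = 0.0261, adjusted p = 0.999), and Bag2, an exchange factor of HSP70, averaged 43.5 ± 8.62 CPM in KO and 37.7 ± 4.12 CPM in WT (SD, n = 6 each).

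Of 12 mitochondrial chaperones and proteases, 0 passed, 3 had positive and 9 negative fold changes, with a median of -0.05. Clpp, the proteolytic subunit of a matrix protease, had 11.2, 12.2 and 14.2 CPM in KO hearts, against 13.2, 15.9 and 18.1 CPM in WT hearts. Of the KO hearts 4 lay below every WT heart, and the log2 fold change was -0.32 (SE 0.11), or -19.8% with an interval from -31.4% to -6.22% (unadjusted p = 0.00802, adjusted p = 0.999 by edgeR). Grpel1, the exchange factor of mortalin, had 87.0, 104.8 and 113 CPM in KO hearts, against 111, 114 and 126 CPM in WT hearts. Of the KO hearts 5 lay below every WT heart, with a log2 fold change of -0.16 (SE 0.07, unadjusted p = 0.0287, adjusted p = 0.999 by edgeR). At an unadjusted p under 0.05 these 2 of 12 genes compare with 4.06% of all genes.

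Of 27 genes of ER folding and ER-associated degradation, 26 were tested, 0 passed, and 16 were positive and 10 negative, with a median of 0.02; Hspa13 and Hyou1, relatives of HSP70 in the ER, had log2 fold changes of 0.14 and 0.11. Of 25 genes of the integrated stress response, 0 passed, with 8 positive and 17 negative and a median of -0.04. Stc2, a secreted glycoprotein, averaged 9.40 ± 1.88 CPM in KO and 8.01 ± 1.27 CPM in WT, and Aldh18a1, an enzyme of proline synthesis, averaged 9.49 ± 1.79 CPM in KO and 8.19 ± 1.47 CPM in WT (SD, n = 6 each).

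How much these genes vary from heart to heart was set beside other genes of like level. The spread within groups, as the SD of log2 CPM, had a median percentile of 52.3 over the 44 genes among genes within 2-fold of their level. It was highest for Hsph1 (percentile 96.6), Dnaja1 (94.1), Hspe1 (93.4), Chac1 (91.2), Hspb1 (90.6) and Dnajc3 (90.1), and lowest for Hspd1 (5.91). Chac1 had 0.712 CPM in K12 and 4.06 CPM in K9, and in WT hearts ran from 1.09 to 2.78 CPM.

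Hearts also shared part of their variation between genes. After removal of the group means, 124 of 153 pairs of ER genes were positively correlated over the 12 hearts, with a median Pearson r of 0.223. Of the pairs of cytosolic genes, 92 of 136 were positive, with a median of 0.126. Medians between classes ran from -0.01 (ER with ATF4) to 0.168 (mitochondrial with ATF4), with 0.131 for cytosolic with mitochondrial genes. No median over pairs of all tested genes was computed, so the shared variation is not shown to be particular to a class. These counts and medians are descriptions over libraries that the genes share, with no test. The pairs with the highest r joined compartments as well as partners, such as Hspa8 with Dnajc3 (0.901) and Hsp90aa1 with Dnaja1 (0.871), while Hspb6 with Bag3 was the most negative (-0.849).

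**Figure D4:**
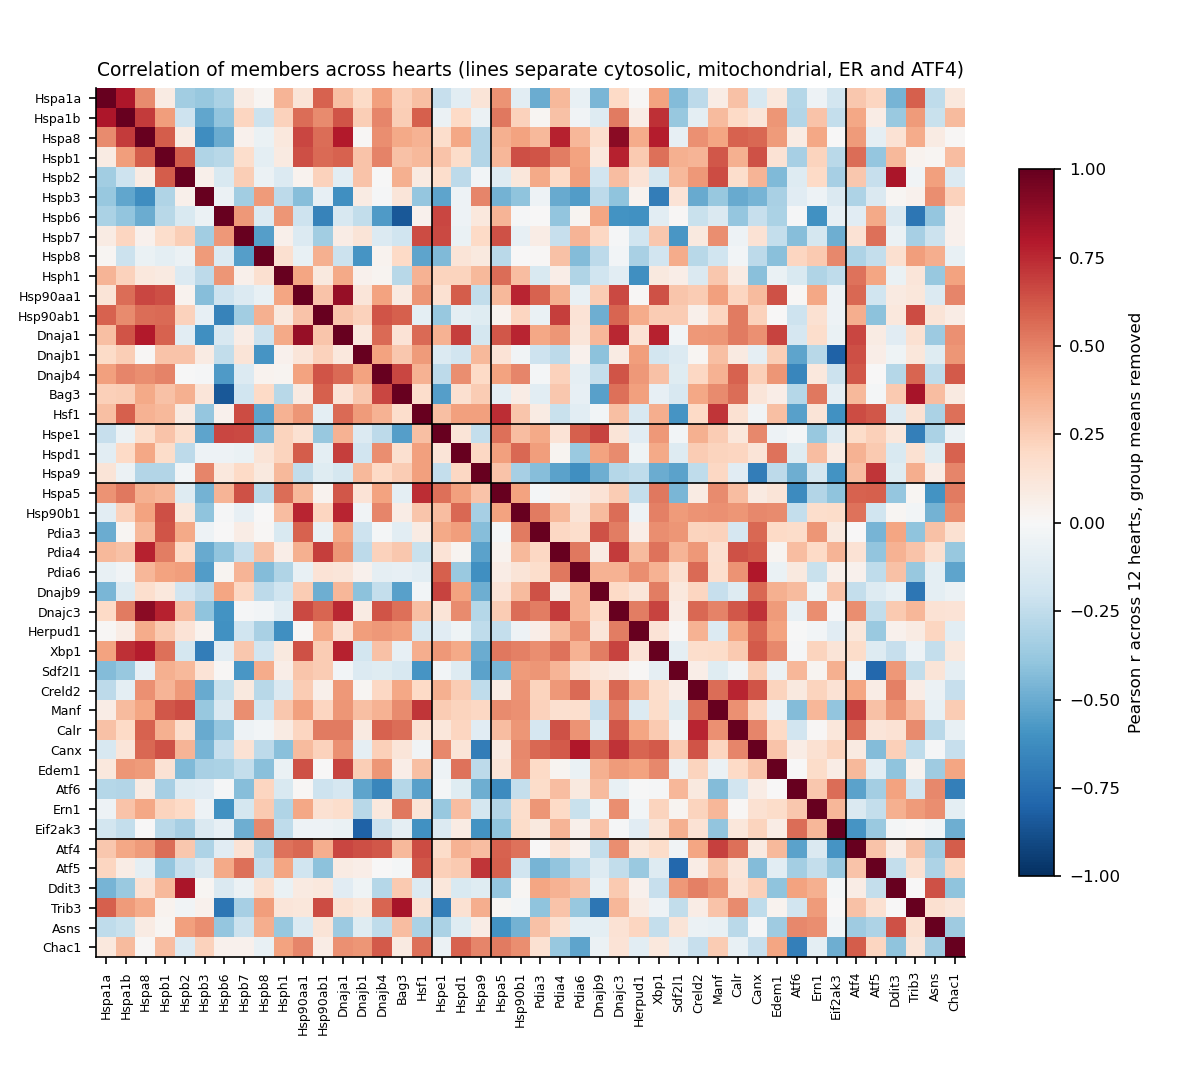
Pearson r of log2(CPM + 0.5) for every pair of the 44 tested genes over 12 hearts after removal of the group means, with lines between the cytosolic, mitochondrial, ER and ATF4 classes; red is positive and blue negative. The ER block is mostly red, with 124 of 153 pairs positive.

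Of 10 pairs chosen for a test, 1 was called. Hspa1a and Hspa1b varied together, with Pearson r = 0.806 (permutation p = 0.00178, adjusted over the 10 pairs 0.0178) and Spearman rho = 0.832 (permutation p = 0.00133, adjusted 0.0133). The r was 0.689 within KO and 0.91 within WT hearts, and 0.794 without W1 and W4, the hearts farthest from the median. Without W1 alone the adjusted p was 0.0997 and without W3 it was 0.0555. How the counting split reads between these near-identical copies was not tested.

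Hspb2 and Cryab, neighbours on chromosome 9 whose exons overlap, had r = 0.578 (permutation p = 0.0496, adjusted 0.165; rho = 0.455, permutation p = 0.14, adjusted 0.35). In KO hearts r was 0.864 and in WT hearts -0.01, and without K8 and W2 it was 0.906; the difference between genotypes was not tested. Hspa1b and Hspa8 had r = 0.696 (permutation p = 0.0144, adjusted 0.0719; rho = 0.601, permutation p = 0.0435, adjusted 0.181), and 0.57 without K8 and W1. Hspd1 and Hspe1, which share a promoter region, had r = 0.126 (permutation p = 0.699, adjusted 0.699; rho = 0.308, permutation p = 0.333, adjusted 0.43). Asns and Trib3 each held a match to the element of ATF4, in Trib3 after the start site. Their r was 0.157 (permutation p = 0.628, adjusted 0.698) and their rho 0.00699 (permutation p = 0.991, adjusted 0.991). The r became -0.53 without W2. The other 5 pairs had r from -0.454 (Hspa5 with Sdf2l1) to 0.525 (Hspa1b with Hspa5), with adjusted permutation p from 0.198 to 0.583.

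**Figure D5:**
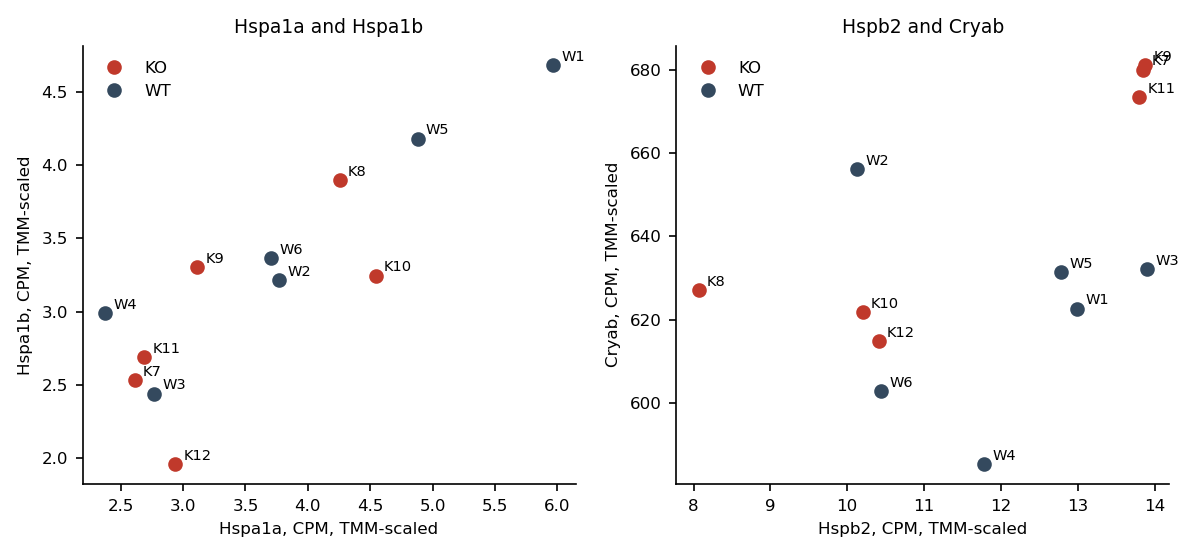
CPM, scaled by TMM, of Hspa1b against Hspa1a (left) and of Cryab against Hspb2 (right), with 1 point per heart, KO in red and WT in dark blue. On the left the hearts lie along a line up to W1 at 5.97 CPM of Hspa1a; on the right K7, K9 and K11 lie together at the top.

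Of all tested genes, the 5 most like Hspa1b across the 12 hearts by the same r were Oasl1, Orai2, Bbs5, Septin5 and Zdbf2 (0.831 to 0.92), those most like Hspa5 were Pigw, Map7d1, Slc25a42, Tomm5 and Riox1 (0.899 to 0.94), and those most like Asns were Plppr2, Cln8, Rexo1, Setd1b and Rcn1 (0.843 to 0.91). None of the 46 genes was among them. The search ran over 13832 genes with 12 hearts, so values of this size are a description and carry no test.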

How the data were processed

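Whole-heart RNA of 12 mice was compared by genotype as labelled, 6 KO and 6 WT, each a separate mouse per the design text. The authors deposited unnormalized read counts for each gene. Tools named per the submitters' processing notes are TopHat, DESeq, bcl2fastq and CASAVA 1.8, with mm10 as the build. How reads were counted (program, annotation, strand, reads with several positions) was not given in the sources used here. Of 24061 identifiers 23976 matched a RefSeq name, and 46 of 46 chosen genes were found.

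Counts were filtered with filterByExpr (minimum 10, total 15), scaled by TMM and tested with edgeR 4.0.16 in R 4.3.3 (quasi-likelihood F test, Benjamini-Hochberg over 13832 genes, threshold 0.05). Each standard error is the log2 fold change over the root of F, and 95% intervals follow from it. RPKM used GENCODE M21 exon lengths, as the union of all annotated exons of each gene. Correlations used log2(CPM + 0.5) and 100000 permutations, two-sided. Group means were subtracted first, and values were then permuted over all hearts without regard to genotype. This can make the permutation p somewhat too small. Library totals limit precision at low counts, and the limits given for 0 reads cover counting error only. DESeq2 1.42.0, limma-voom (limma 3.58.1), other scalings, filters, a threshold of 0.1 and removal of hearts were alternatives. The code was tested on simulated data, in which the pairs for correlation held no groups.

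The 46 genes, lists, pairs and rules were chosen with earlier results of these data known. Genes given in full were the 3 of smallest p in each class (2 mitochondrial), Hspa1a, Hspa1b, Hspa5, Xbp1, Hspd1, Hspe1, Atf4 and Ddit3, and the 2 of smallest p in each further list.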

Additional observations from a re-analysis of the deposited data

Results flagged for a closer look

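In 7 of 106 sets of 6 values (genes described here, in either genotype), the highest or lowest heart stood far from the other 5, its gap to the nearest exceeding Dixon's critical share of the range, where chance gives about 5.3 such sets. Among the ER genes these were Pdia3 in W4 (199 CPM, other WT hearts 160 to 166 CPM), Calr in K11 (273 CPM, other KO hearts 293 to 304 CPM) and Atf6 in K12 (216 CPM, other KO hearts 183 to 194 CPM). In the further lists Dnaja4 was low in W1 (169 CPM, other WT hearts 207 to 223 CPM) and Hyou1 high in K8 (63.6 CPM, other KO hearts 51.2 to 55.3 CPM). Grpel1 was low in K8 (87.0 CPM, other KO hearts 104 to 113 CPM) and high in W1 (126 CPM, other WT hearts 111 to 116 CPM), the lowest and the highest of all 12 hearts for this gene.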

How the results depend on the processing

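Under the alternatives 740 recomputed values kept their direction and their side of the threshold or stayed within their spread, and the others are given here. For the 46 genes the count called was 0 under every alternative run, with a lowest adjusted p of 0.793. Over all genes DESeq2 called 6, edgeR without a count filter 16, a threshold of 0.1 gave 3, and leaving out hearts in turn gave 0 to 2. Signs turned for Trib3 (leave-one-out log2 fold changes from -0.295 to 0.0674, positive without W1), Hspe1 (-0.106 to 0.0475, positive without K10 or W2, and 0.0079 without W2 and K7) and Ddit3 (-0.105 to 0.0298, positive without K8). Slc4a4 passed in DESeq2 (-0.81), without a filter (-0.81) and without K8 (leave-one-out -0.92 to -0.74). Among the correlations of pairs, Hspa1a with Hspa1b ran from 0.74 to 0.881 with hearts left out and missed the threshold without W1 or W3. Hspa1b with Hspa8 passed without removal of group means (0.709), under library totals (0.711) and without W4 or W6 (leave-one-out 0.595 to 0.81). Hspb2 with Cryab passed under library totals (0.693), without W2 (leave-one-out 0.512 to 0.825) and without W2 and K7 (0.794). Hspa1b with Dnajb1 ran from -0.0319 to 0.46, negative without K12, Hspd1 with Hspe1 was -0.129 under library totals, and Asns with Trib3 ran from -0.528 to 0.358, negative without W2, and was -0.473 without W2 and K7. The cause was not tested. Depth limits Hspa1a, Hspa1b, Asns, Trib3, Chac1, Fgf21 and Gdf15. No paired analysis was made, because the labels give no pairing of KO with WT hearts.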
